A study of Homo sapiens with 4 samples.

Results

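The 6 genes described here encode the ISG15 conjugation pathway, namely the ubiquitin-like modifier ISG15, its activating enzyme UBA7, its conjugating enzyme UBE2L6, the ligases HERC5 and HERC6, and the protease USP18. They were chosen by name, and a probe was taken for a member when its transcript accession belonged to that gene in the RefSeq gene table of GRCh38.p14. All 6 genes were found, with 7 probes, among 19102 genes named on the array, and all 6 were among the 14556 genes tested. The cells were PC3, an androgen-independent prostate cancer line, infected for 48 h with lentivirus that carried an shRNA against ALKBH3, an oxidative demethylase that repairs alkylated nucleic acids, or a control shRNA, which the methods give as directed against GFP. Both kinds of cells had therefore received a lentivirus, and RNA was taken 48 h or 96 h into puromycin selection. Each of the 4 combinations was measured on 1 single-colour Agilent array, and the sequence of the ALKBH3 shRNA is not given in the labels. The arrays of a time point shared a slide, so time and slide cannot be told apart. Each slide held both shRNAs, and the differences at a time point were taken within a slide. Fits with an array left out, and counts of both ALKBH3 shRNA arrays above both control arrays, also compare across slides and times. Nothing in the labels says whether the time points were separate cultures, and the p-values measure only the spread between these 4 arrays.

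ISG15 is attached to lysines of other proteins by a cascade like that of ubiquitin. UBA7 activates it, UBE2L6 receives it, and HERC5, the main ligase for ISG15 in human cells, passes it on to proteins, largely newly made ones, at the ribosome. HERC6 is the closest relative of HERC5 and is the main ISG15 ligase in mice. USP18 takes ISG15 off its targets and, apart from that activity, binds the interferon receptor chain IFNAR2 and damps signalling. All of these genes are known as targets of type I interferon, whose signal acts on promoters through the interferon-stimulated response element.

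ISG15 lies on chromosome 1 (chr1:1013497-1014540), UBA7 on chromosome 3 (chr3:49805209-49813953), UBE2L6 on chromosome 11 (chr11:57551662-57567935) and USP18 on chromosome 22 (chr22:18150170-18177397). HERC6 (chr4:88378852-88443097) and HERC5 (chr4:88457119-88506163) are neighbours on chromosome 4, with 14021 bases between them. The core of the interferon-stimulated response element, taken as TTTC, any 2 bases and TTTC again, on either strand, was looked for in RefSeq promoter windows of GRCh38.p14, which reach from 250 bases before a gene's start to 50 bases after it. It was present in 3.57% of all 35116 windows. Windows were used for 4 of the 6 members, and those of ISG15 and HERC5 held the core, while the window of HERC6 and both windows of UBE2L6 did not. ISG15 and HERC5 were higher after ALKBH3 knockdown, and so were HERC6 and UBE2L6, whose windows held no match. The stretches with the core are printed on the strand of the gene, with the bases that match in capitals. In ISG15 and at the first HERC5 site 2 overlapping matches form 1 run of capitals, and the core of ISG15 lies on the opposite strand and so reads here as GAAA, 2 bases and GAAA.
ISG15, chr1:1013377-1013406: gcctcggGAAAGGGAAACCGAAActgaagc
HERC5, chr4:88456987-88457016: attacagTTTCCTTTTCCTTTTCgattccg
HERC5, chr4:88457035-88457064: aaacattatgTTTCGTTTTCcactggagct
The capitals begin 113 bases before the start of ISG15 and 125 and 74 bases before that of HERC5. A match of letters does not show that a factor was bound there.

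Each signal is given as a log2 intensity relative to the 75th percentile of its own array, a percentile that was between 2134 and 2385 intensity units. Levels of different probes are not compared, since probes differ in how well they bind. ALKBH3, the target of the shRNA, had a log2 signal of -0.73 (control) and -2.48 (ALKBH3 shRNA) after 48 h and of -0.89 (control) and -2.40 (ALKBH3 shRNA) after 96 h. A second ALKBH3 probe had log2 differences of -2.04 (48 h) and -2.06 (96 h). No spot was saturated, and the share of probes well above background ran from 67.0% to 70.9% over the arrays. All 7 member probes were well above background on all 4 arrays, so no filter chose between the groups. Of the epithelial markers KRT8, KRT18, EPCAM and CDH1, 4 of 4 were well above background on every array, and their summed signal relative to the 75th percentile was 51.4 and 52.1 with control shRNA and 58.5 and 54.2 with ALKBH3 shRNA. KRT18 makes up most of this sum, and among the others EPCAM, named after its values were seen, was higher with ALKBH3 shRNA by 0.96 at 48 h and 0.99 at 96 h on the log2 scale (limma adjusted p = 0.416, and 0.0214 with time point as a block). CDH1 was higher by 0.89 and 0.58 (limma adjusted p = 0.891, and 0.0391 with the block). The difference of EPCAM at 96 h was above that of each member but HERC6, and the part of these markers in the results was not tested. KLK3, which marks androgen-responsive prostate cells, was not well above background on any array, while TMPRSS2 was on all 4. Of 7 leukocyte markers 6 were named on the array, PTPRC, CD3E, CD14, ITGAM and CD68 among them, and these also passed this mild criterion, with a summed signal of only 0.848 and 0.657 with control and 0.954 and 0.661 with ALKBH3 shRNA (48 h, then 96 h). Their log2 fold changes lay between -0.09 and 0.23, and 0 passed the cutoffs.

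After 48 h of selection all 6 genes had a higher signal with ALKBH3 shRNA than with control shRNA, against 6861 of the 14556 genes tested. The difference was at least 2-fold for 5 of them, all but ISG15, against 1.85% of all genes tested. After 96 h 5 of the 6 were higher, against 7589 of 14556 genes, and UBA7 was slightly below its control. HERC6 alone was at least 2-fold higher, against 1.5% of all genes. HERC6 was therefore the 1 member at least 2-fold higher at both times, against 0.694% of all genes. In 5 of the 6, all but UBA7, both ALKBH3 shRNA arrays lay above both control arrays, against 17.4% of all genes. The median log2 fold change of the members was 1.70 at 48 h and 0.72 at 96 h, while that of all genes was -0.01 and 0.01. The plot of signals on each array shows the fall in the height of the steps from the first to the second time point. With a single array per combination, neither the values at a time point nor the difference between them were tested.

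**Figure D1:**
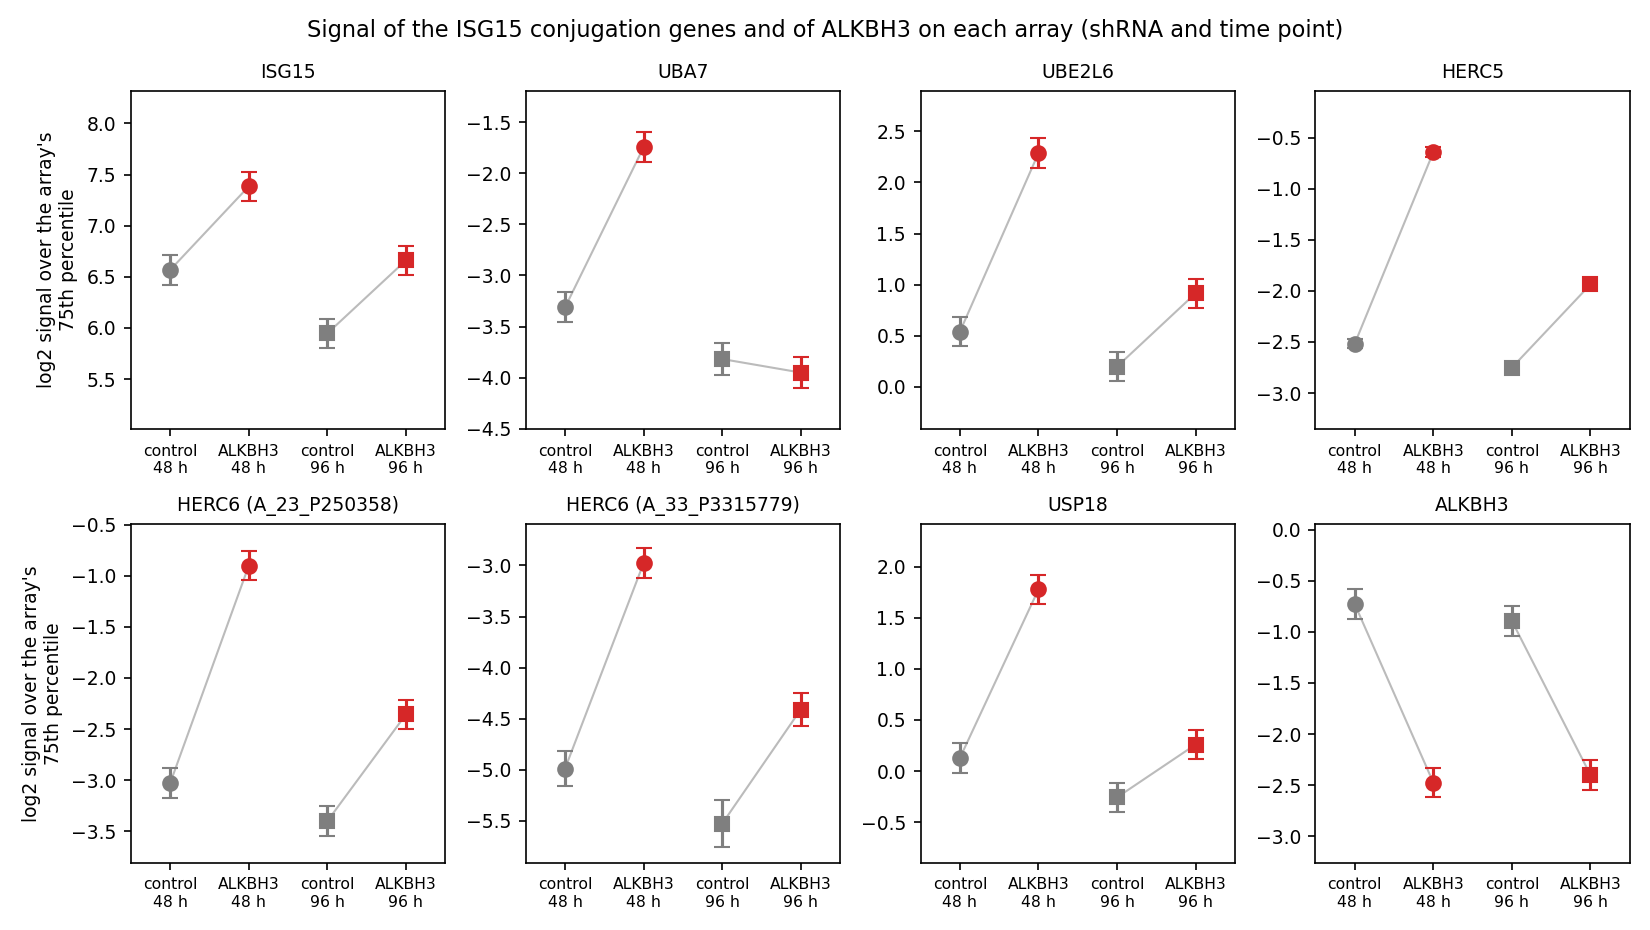
Log2 signal relative to the 75th percentile of the array, for the 7 member probes and 1 ALKBH3 probe, on the control shRNA arrays (grey) and the ALKBH3 shRNA arrays (red) at 48 h (circles) and 96 h (squares), with bars for the error that the image software estimates for the spots of a single array. Every panel spans the same height in log2 units around its own level. The step from control to ALKBH3 shRNA is larger at 48 h than at 96 h for UBA7, UBE2L6, HERC5, both HERC6 probes and USP18, and nearly equal at both times for ISG15, at 0.82 and 0.71.

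Over all 4 arrays, 2 for each shRNA, limma was used to compare the groups, and the cutoffs for a call were those of the study, 2-fold together with an unadjusted p under 0.05. The 2 arrays of a shRNA differ in time point, so the standard errors and p-values of this fit also hold the change with time. HERC5 and HERC6 passed, so that 2 of 6 members rose, against 1.04% of all genes (151 of 14556), and 0 members fell, against 0.24%. The median log2 fold change of the members was 1.16, and that of all genes -0.0025. After Benjamini-Hochberg adjustment of the limma p-values 0 genes were left under 0.05, of 1208 that were so before it. When the time points entered the fit as a replicate block UBE2L6 and USP18 passed the cutoffs as well, which made 4 of 6 members against 1.33% of all genes. In that fit ISG15, itself under 2-fold, was the 1 member with an adjusted p below 0.05, against 3.39% of all genes that did so and were higher. The spread of a gene in that fit is the difference between its fold changes at 48 h and 96 h. Its standard error was 0.08 for ISG15, with nearly equal fold changes, 0.27 for HERC6 and 0.41 for UBA7. Its p-values therefore do not rank the members by the size of their rise. The call rested on single arrays. Without the 48 h ALKBH3 shRNA array 0 members passed, against 1.82% of all genes, and without the 96 h control array 0 passed, against 0.994%. Without the 96 h ALKBH3 shRNA array all 6 did, in a fit that called more genes throughout, 385 of 14779 or 2.61%.

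ISG15, the modifier itself, had a log2 signal of 6.57 (control) and 7.39 (ALKBH3 shRNA) after 48 h and of 5.95 (control) and 6.66 (ALKBH3 shRNA) after 96 h. Both ALKBH3 shRNA arrays were above both control arrays, but the 96 h ALKBH3 shRNA array was only slightly above the 48 h control array. The fold was 1.76 at 48 h and 1.64 at 96 h, so that ISG15 had the smallest difference of the 6 genes at 48 h, while at 96 h it was level with UBE2L6 and above USP18 and UBA7. Over all arrays the log2 fold change was 0.77 ± 0.34 (SE, n = 2 arrays for each shRNA, limma adjusted p = 0.662), below the 2-fold cutoff. The replicate block left the size unchanged and gave a standard error of 0.08 and a limma adjusted p of 0.0259. That error is small because the fold changes at the time points were nearly equal. ISG15 passed the cutoffs when the 48 h control array was left out, at a log2 fold change of 1.08, or the 96 h ALKBH3 shRNA array, at 1.13. Its intensity of 380449 on the 48 h ALKBH3 shRNA array stood close to the highest intensity of any spot of a gene probe there, 421229, and was not marked as saturated. Whether the response of the scanner was still linear at this height was not tested.

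UBA7, the activating enzyme for ISG15, had a log2 signal of -3.31 (control) and -1.75 (ALKBH3 shRNA) after 48 h and of -3.82 (control) and -3.95 (ALKBH3 shRNA) after 96 h. Only the 48 h ALKBH3 shRNA array was high, and the 96 h ALKBH3 shRNA array was the lowest of the 4, so the groups overlapped. UBA7 was 2.96-fold higher at 48 h, whereas at 96 h the log2 fold change was -0.13, smaller than the error of 0.22 that the software gives for this difference of 1 spot from 1 spot. Over all arrays the log2 fold change was 0.72 ± 0.76 (SE, n = 2, limma adjusted p = 0.916). It did not pass the cutoffs in the blocked fit either (limma adjusted p = 0.354). Without the 48 h ALKBH3 shRNA array its sign turned, to -0.39, where the 96 h array alone is set against controls of both times. Without the 96 h ALKBH3 shRNA array the log2 fold change was 1.82.

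UBE2L6, the conjugating enzyme, had a log2 signal of 0.54 (control) and 2.29 (ALKBH3 shRNA) after 48 h and of 0.20 (control) and 0.92 (ALKBH3 shRNA) after 96 h. Both ALKBH3 shRNA arrays were above both control arrays. The fold was 3.36 at 48 h and 1.64 at 96 h. Over all arrays the log2 fold change was 1.23 ± 0.48 (SE, n = 2, limma adjusted p = 0.617), with an unadjusted p of 0.0555 in limma that just missed the cutoff. It passed the cutoffs with the replicate block (limma unadjusted p = 0.00594, adjusted p = 0.0712), with normexp background correction, with median centring and with the authors' own normalization, with sizes between 1.21 and 1.25. It was 0.55 without the 48 h ALKBH3 shRNA array, and 1.92, past the cutoffs, without that of 96 h.

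HERC5, the ligase, is printed on 10 spots of each array, which shows the error within an array. The 10 intensities ran from 319 to 409 on the 48 h control array, from 1364 to 1541 on the 48 h ALKBH3 shRNA array, from 323 to 372 on the 96 h control array and from 590 to 656 on the 96 h ALKBH3 shRNA array. No spot of an ALKBH3 shRNA array overlapped the spots of a control array, and the SD between spots was between 0.05 and 0.11 on the log2 scale. The mean log2 signals were -2.52 (control) and -0.64 (ALKBH3 shRNA) after 48 h and -2.75 (control) and -1.94 (ALKBH3 shRNA) after 96 h. The fold was 3.66 at 48 h and 1.76 at 96 h. Over all arrays HERC5 rose by a log2 fold change of 1.34 ± 0.45 (SE, n = 2, limma unadjusted p = 0.0345, adjusted p = 0.565). The call was lost without the 48 h ALKBH3 shRNA array, at 0.70, and without the 96 h control array, at 1.23.

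HERC6 had the largest fold changes of the 6 genes, except that at 96 h ISG15 was slightly higher after normexp background correction, 0.78 against 0.75 on the log2 scale. At 48 h HERC6 was level with UBE2L6, both at 1.83, after normexp with quantile normalization. The log2 signal of the probe A_23_P250358 was -3.03 (control) and -0.90 (ALKBH3 shRNA) after 48 h and -3.40 (control) and -2.36 (ALKBH3 shRNA) after 96 h. Its fold was 4.37 at 48 h and 2.06 at 96 h, and the 96 h value was below 2-fold after that correction. The other probe, A_33_P3315779, which carries the accession of another HERC6 transcript, had log2 signals of -4.99 and -2.98 at 48 h and of -5.53 and -4.41 at 96 h. Both probes placed both ALKBH3 shRNA arrays above both control arrays. Over all arrays the log2 fold change was 1.58 ± 0.51 for the first probe (SE, n = 2, limma unadjusted p = 0.0304, adjusted p = 0.548) and 1.56 ± 0.51 for the other, a difference far smaller than either error. Counted by probe, 3 of the 7 member probes passed the cutoffs, those of HERC5 and HERC6, against 0.895% of all probes. The gene lost the call without the 48 h ALKBH3 shRNA array, at 0.86, and without the 96 h control array, at 1.40. HERC6 had an adjusted p of 0.0502 in limma with the replicate block.

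USP18, which removes ISG15, had a log2 signal of 0.13 (control) and 1.78 (ALKBH3 shRNA) after 48 h and of -0.26 (control) and 0.26 (ALKBH3 shRNA) after 96 h. Both ALKBH3 shRNA arrays were above both control arrays, but the 96 h ALKBH3 shRNA array was only slightly above the 48 h control array. The fold was 3.14 at 48 h and 1.43 at 96 h. Over all arrays the log2 fold change was 1.08 ± 0.53 (SE, n = 2, limma adjusted p = 0.710), not past the cutoffs. With the replicate block USP18 passed them (limma unadjusted p = 0.0135, adjusted p = 0.104). The value was 0.32 without the 48 h ALKBH3 shRNA array, and 1.84, past the cutoffs, without that of 96 h. The pseudogene USP41P, a partial copy of USP18, had no probe named for it here, and how far its transcripts bind the USP18 probe is not known.

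The plot of the fold changes at both time points against each other shows 3 patterns among the members. UBE2L6, HERC5, HERC6 and USP18 formed a group with a log2 fold change between 1.65 and 2.13 at 48 h that was lower by between 1.03 and 1.13 at 96 h. UBA7 was lower by 1.70 at 96 h. ISG15 was lower by only 0.10, within the error of single spots. A loss of 1 log2 unit or more was seen in 5 of 6 members and in 0.687% of all genes tested. Several members lay close to this limit, and 4 of 6 reached it under 5 of the 9 other ways of processing. HERC5 was then at 0.94 after normexp, with or without quantile normalization, and at 0.98 with the authors' values, UBE2L6 at 0.99 after median centring and HERC6 at 0.99 as the mean of its probes. The median loss over the members, 1.07, was between 1.04 and 1.13 in these 9.

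**Figure D2:**
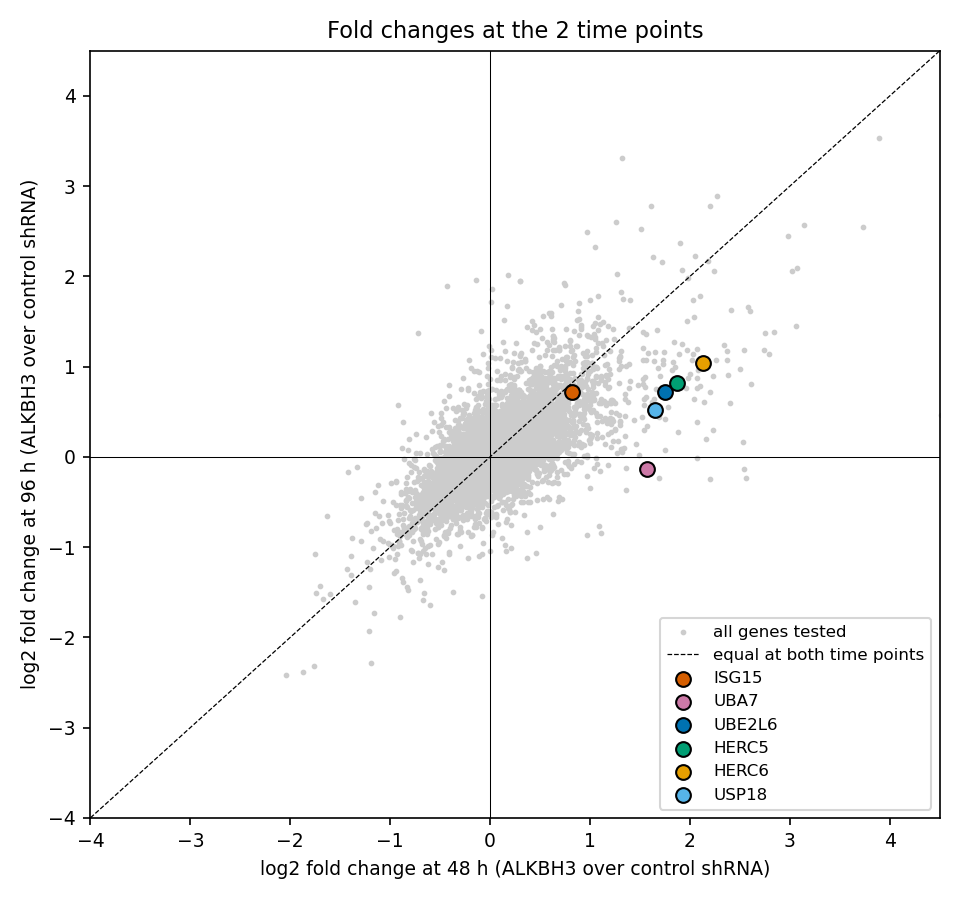
Log2 fold change of ALKBH3 over control shRNA at 48 h (horizontal axis) and at 96 h (vertical axis) for all 14556 genes tested (grey) and the 6 members (coloured), with a dashed line where both are equal. ISG15 lies next to the line, at 0.82 and 0.71, the other members lie below it, and UBA7 lies just under zero at 96 h, at -0.13.

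The loss lay in the ALKBH3 shRNA arrays, since the control arrays were lower at 96 h too, which by itself raises the fold change. From 48 h to 96 h the log2 signal with ALKBH3 shRNA was lower by between 1.29 for HERC5 and 2.20 for UBA7 in 5 of 6 members, all at least 2-fold, against 1.9% of all genes, and by 0.72 for ISG15. With control shRNA all 6 members were also lower at 96 h, against 54.2% of all genes, but 0 of them 2-fold, against 1.01%. The control difference was smallest for HERC5, at -0.23, and largest for ISG15, at -0.62. ISG15 thus had similar differences between the time points with both shRNAs, -0.62 and -0.72, and UBA7 the most unlike ones, -0.51 and -2.20. Fewer cells with these transcripts and less RNA per cell cannot be told apart in RNA from whole cultures. The control and the ALKBH3 shRNA arrays of a time point share a slide, so these changes with time may hold differences between slides.

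The classes of enzymes to which the members belong were listed for comparison. Of 9 activating enzymes of ubiquitin and other modifiers, 9 were tested and 0 passed the cutoffs, and the highest log2 fold change was 0.17, for NAE1, part of the NEDD8 activating enzyme. Of 30 other conjugating enzymes 29 were tested and 0 passed, from -0.52 for UBE2V1, a partner of UBE2N in making lysine-linked ubiquitin chains, to 0.26 for UBE2E3. With the replicate block UBE2V1 had a limma adjusted p of 0.0449. Of the other HERC ligases HERC1, HERC2 and HERC4 were tested, and their log2 fold changes of -0.06, -0.16 and -0.00024 did not pass. HERC3, which starts 17679 bases past the end of HERC5, was not well above background on any array. Of 48 other USP proteases 39 were tested and 0 passed, from -0.39 for USP46 to 0.67 for USP43. USP43 was higher by 0.66 at 48 h and by 0.68 at 96 h. With the replicate block its limma adjusted p was 0.0296, below that of each member but ISG15. That fit gives a small error to such nearly equal steps. Of 14 genes for ubiquitin and ubiquitin-like modifiers other than ISG15, 13 were tested and 0 passed, and the lowest was ATG12, which acts in autophagy, at -0.25. UBD, another modifier known to be induced by interferon, was not well above background on any array. The medians of these 5 classes were 0.03, -0.06, -0.06, -0.0030 and -0.04 in the order given, near that of all genes. With the replicate block 0 genes of these classes passed the cutoffs, against 1.33% of all genes that passed as higher.

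**Figure D3:**
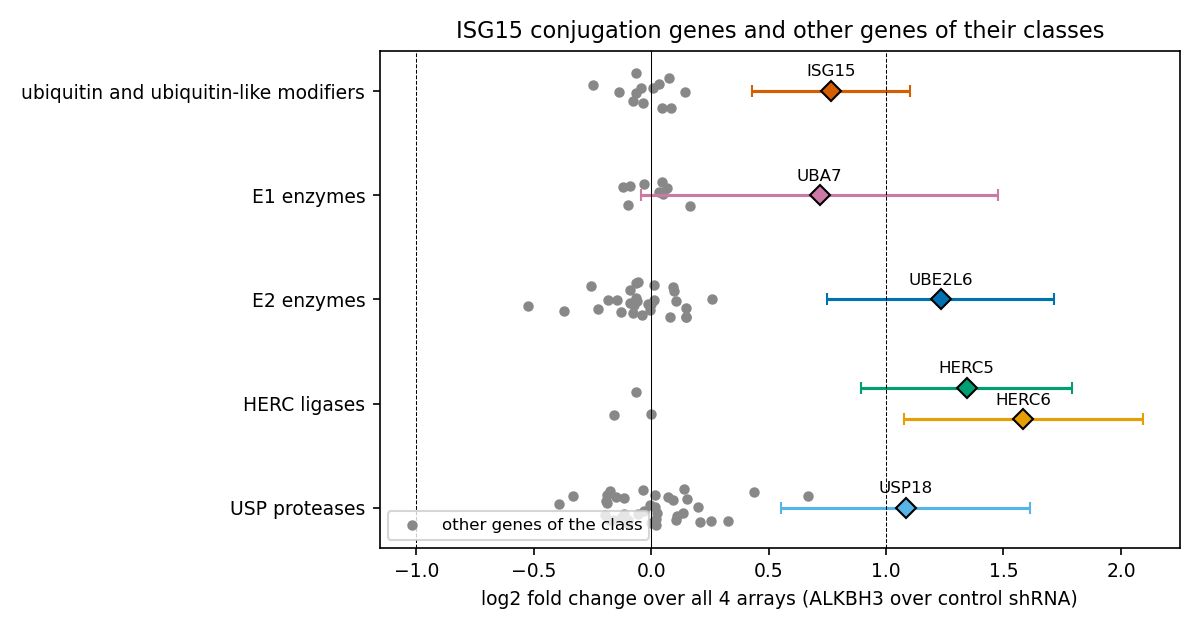
Log2 fold change over all 4 arrays of the 6 members (diamonds, with the standard error from limma) and of the other tested genes of the same class (grey points, spread vertically for legibility), with dashed lines at 2-fold. The grey points lie between -0.52 and 0.67, and the members between 0.72 and 1.58.

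Other proteins that handle ISG15 were listed too, among them the ligases TRIM25 and ARIH1, further proteases reported to act on ISG15, SKP2, which targets USP18 for degradation, and the integrin chains ITGAL and ITGB2 that bind free ISG15. Of 12 genes 9 were tested and 0 passed the cutoffs. The highest was ITGB2, at 0.53 ± 0.27 on the log2 scale (SE, n = 2, limma adjusted p = 0.732, and 0.0474 with the replicate block). The lowest was USP16, at -0.33 ± 0.12 (SE, n = 2, limma adjusted p = 0.591, and 0.106 with the block). ITGAL and USP2 were not well above background on any array. The median of the 9 was 0.03.

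Of 10 interferon ligand genes 4 were tested. The highest was IFNL1, a type III interferon, with a log2 signal of -6.26 and -6.40 with control and -5.17 and -5.80 with ALKBH3 shRNA (48 h, then 96 h), of which the 96 h control value was not well above background. IFNL1 entered the fit only through the ALKBH3 shRNA arrays, both of which were well above background. Its log2 fold change of 0.85 is therefore given as a description, without a test. The lowest log2 fold change was that of IFNE, with -0.08. IFNL2, named after its values were seen, was well above background on all 4 arrays. It was higher with ALKBH3 shRNA by 1.31 at 48 h and by 0.08 at 96 h on the log2 scale. Over all arrays IFNL2 had a log2 fold change of 0.70 ± 0.42 (SE, n = 2, limma adjusted p = 0.777). IFNB1, a type I interferon, was well above background on the 48 h ALKBH3 shRNA array only and was not tested. Of 9 receptor and signalling genes 9 were tested and 0 passed the cutoffs. With the replicate block 1 of the 9 passed as higher, against 1.33% of all genes. The median of the list was 0.13, and the lowest of the list was TYK2, a kinase of the interferon receptor, with -0.23.

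Among 18 proteins reported to carry ISG15, the genes of IFIT1 and MX1, antiviral proteins that interferon induces, rose past the cutoffs. These are 2 of 18, against 1.04% of all genes, and 0 fell, against 0.24%. IFIT1 had log2 signals of 3.65 and 5.57 at 48 h and of 2.90 and 4.15 at 96 h, and its log2 fold change was 1.58 ± 0.54 (SE, n = 2, limma adjusted p = 0.573). MX1 had log2 signals of 4.45 and 6.09 at 48 h and of 3.63 and 4.78 at 96 h, and its log2 fold change was 1.40 ± 0.52 (SE, n = 2, limma adjusted p = 0.597). Neither was past the cutoffs without the 48 h ALKBH3 shRNA array, at 0.87 and 0.75, or without the 96 h control array, at 1.21 and 0.99. With the replicate block both had a limma adjusted p below 0.05 (0.0276 and 0.0239). In that fit 4 of the 18 passed the cutoffs as higher, against 1.33% of all genes. The lowest was IRF3, a factor that switches on interferon genes, with -0.17, and the median of the list was 0.12.

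The genes whose log2 profile over the 4 arrays, centred on its mean, lay nearest to each member were found by Euclidean distance among 14555 others. They describe 4 values each and share the arrays with the members. The nearest to ISG15 were SP140, CYP4X1 and BEX2, at distances from 0.064 to 0.078. The nearest to UBA7 were CASP1, TRIM22 and APOL6, at greater distances, from 0.32 to 0.45, and with log2 fold changes at 96 h between -0.01 and 0.10. PATL2 was the nearest to both UBE2L6 and HERC5, at 0.091 and 0.11, followed by HERC5 and IFIT2 for UBE2L6 and by SP110 and CFHR3 for HERC5. HERC6 lay nearest to SAMD9, IFIH1 and IFIT3, and USP18 to IFIT2, TMEM140 and UBE2L6. Among the members themselves UBE2L6 and HERC5 were the closest pair, at 0.15, and ISG15 and UBA7 the most distant, at 1.05.

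**Figure D4:**
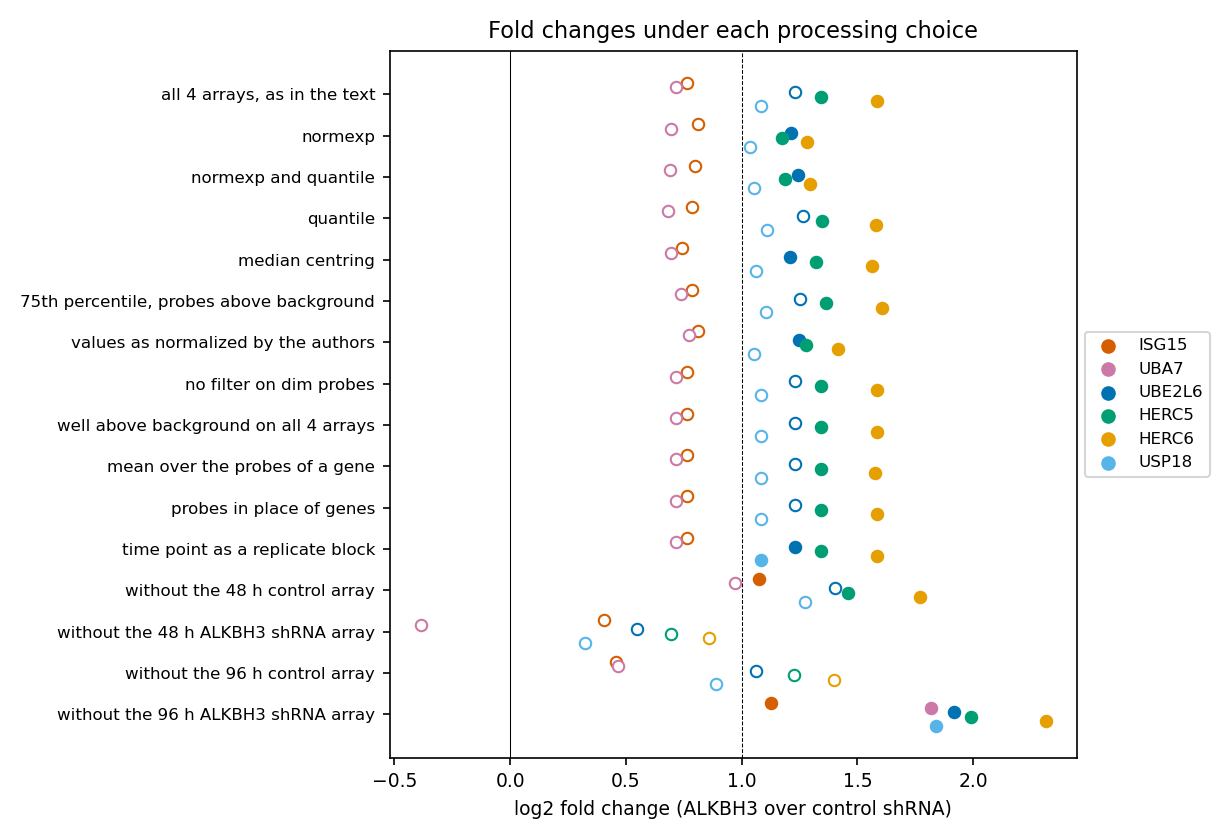
Log2 fold change of the 6 members over the arrays under each way of processing and with each array left out, filled where the 2-fold change and the unadjusted p of the cutoffs were both passed and open where not, with a dashed line at 2-fold. The values move little between ways of processing and most when an array is left out, where the median runs from 0.48 to 1.88.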

How the data were processed

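RNA from PC3 cells had been hybridized to 4 single-colour Agilent 4x44K arrays. The authors deposited the processed intensity of each spot, made array by array with Feature Extraction (version 10.7.3.1 in the file headers), and a table of log2 values that they had normalized between arrays with limma. Of 43118 spots of gene probes, between 180 and 379 on an array were marked as poor and removed. Log2 intensities were centred on the 75th percentile and spots of a probe averaged. Accessions matched to RefSeq named 24910 of 34127 probes. The array files hold no gene names, so members were found by accession. A gene was represented by its probe with the highest mean signal, among probes that both arrays of 1 shRNA or the other showed well above background (0.5 of the spots or more). Groups were compared with limma 3.58.1 in R 4.3.3 (lmFit, eBayes, no covariate), with Benjamini-Hochberg adjustment over all genes. Alternatives were normexp background correction (offset 50, on the median pixel signal), quantile normalization, both together, other centring, the authors' values, other filters, the mean over probes, single probes, a replicate block for time point, and leaving out each array. Arrays of a time point deviated together from their group means (r = 0.703 across 14556 genes, which are not independent), and the labels pair them by time. The fit was tested on simulated data. Named were all members, and from each list the genes past the cutoffs, the highest and the lowest, and the 3 nearest profiles of each member, and a few genes that this rule names are not reported here. Members and lists were chosen with earlier results of these data known. The number of arrays limits the precision.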

Additional observations from a re-analysis of the deposited data

Results flagged for a closer look

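UBA7 was the member whose fold change ran in opposite directions at the time points, 1.57 on the log2 scale after 48 h and -0.13 after 96 h. With a single array per combination this difference was not tested, and the value at 96 h is smaller than the software's error for a difference of single spots, 0.22. The sign at 96 h was the same under the 9 other ways of processing the arrays, with values from -0.19 to -0.05.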

How the results depend on the processing

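With time point as a replicate block 4 members passed the cutoffs in place of 2, UBE2L6 at a log2 fold change of 1.23 and USP18 at 1.08 being added. UBE2L6 also passed after normexp background correction (1.21), after normexp with quantile normalization (1.24), after median centring (1.21) and with the authors' own normalization (1.25). HERC6 was under 2-fold at 96 h after normexp, with or without quantile normalization, and with the authors' values, so that 0 members in place of 1 were at least 2-fold higher at that time. Leaving out 1 array at a time, the number past the cutoffs was between 0 and 6, the median log2 fold change between 0.48 and 1.88, ISG15 between 0.40 and 1.13, UBA7 between -0.39 and 1.82, UBE2L6 between 0.55 and 1.92, HERC5 between 0.70 and 1.99, HERC6 between 0.86 and 2.31 and USP18 between 0.32 and 1.84. UBA7 was the member that changed sign, without the 48 h ALKBH3 shRNA array. The lone remaining array of a group was assumed to vary like the other group. It holds a single time point, so these values also hold the change with time and slide. The causes were not tested. The number at least 2-fold higher at 48 h was 5 under all 9 other ways of processing. The number of all genes higher past the cutoffs, in place of 151, was 61 after normexp, 66 after normexp with quantile normalization and 88 with the authors' values. It was 125 after quantile normalization, 102 with probes well above background on all 4 arrays and 276 with no filter on dim probes. The number lower was 22, 21, 32, 40, 31 and 56 in the same order, in place of 35. The added runs of IFIT1 and MX1 were chosen after seeing the data.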
